A study of Homo sapiens with 6 samples.

Results

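The 9 genes described here encode secreted chemokines: CXCL1, CXCL2, CXCL3, CXCL5, CXCL10, CXCL11, CXCL16, CCL5 and CCL20. They were selected by gene symbol, as 9 of the 26334 genes in the count table, because CXCL10 stood among the largest rises in shWDR5 cells. The measured contrast therefore entered the selection, and the members' differences between the groups are given as a description with no test.

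The cells were MCF10DCIS.com (MCF10DCIS), an established human breast cancer line of the MCF10 lineage that forms lesions resembling ductal carcinoma in situ when grafted. WDR5 is a core subunit of the methyltransferase complexes that methylate lysine 4 of histone H3. All cells carried a pRSI-U6-UbiC-TagRFP-2A-Puro vector and were selected with puromycin at 3 µg/ml, in DMEM/F12 with 5% horse serum, 2 mM glutamine, 10 mM HEPES, 1.05 mM CaCl2 and penicillin/streptomycin. In 3 samples the vector was directed against WDR5 (shWDR5) and in the other 3 it held a control shRNA (shLuc). Pooled shRNAs to WDR5 were used in this line elsewhere in the study, and whether these samples carried 1 shRNA or the pool is not given in the sources used here. The labels name neither the hairpin sequence nor the time from infection to harvest, and they do not say whether the replicates were separate infections, so p-values measure the spread between these samples.

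Chemokines are small proteins that steer the movement of leukocytes and of some tumour cells along a gradient, through G-protein-coupled receptors. CXCL1, CXCL2, CXCL3 and CXCL5 carry the ELR motif and act on the neutrophil receptor CXCR2. CXCL10 and CXCL11 are interferon-inducible ligands of CXCR3 on activated T cells. CXCL16 is made as a membrane protein that binds CXCR6, CCL5 attracts T cells and monocytes, and CCL20 is the ligand of CCR6. In epithelial cells, many of these genes are switched on by NF-kB downstream of TNF or interleukin 1, and CXCL10 and CXCL11 also by interferon signalling through IRF factors.

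Chromosome 4 holds 6 of these genes, and their promoters share short sequences. In the hg19 coordinates of the count table, CXCL1 (chr4:74735109-74737019, + strand), CXCL5 (chr4:74861359-74864446, - strand), CXCL3 (chr4:74902312-74904490, - strand) and CXCL2 (chr4:74962754-74964997, - strand) sit within 229.9 kb. CXCL10 (chr4:76942269-76944689, - strand) and CXCL11 (chr4:76954840-76957350, - strand) lie farther along the same chromosome, CXCL16 and CCL5 on chromosome 17 (chr17:4636824-4643223 and chr17:34198496-34207377, both - strand), and CCL20 on chromosome 2 (chr2:228678558-228682280, + strand).

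The RefSeq promoter table (GRCh38.p14, 250 bases before to 50 bases after each start) matched 7 of the 9 members, all but CXCL16 and CCL5. The stretches below are shown because they hold, in capitals, a match to GGAANTTCC, a kappa-B-like motif of the kind NF-kB binds. Each is written 5′ to 3′ on the strand of its gene.
CXCL1 (chr4:73869295-73869344, + strand): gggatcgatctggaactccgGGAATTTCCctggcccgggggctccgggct
CXCL2 (chr4:74099243-74099292, - strand): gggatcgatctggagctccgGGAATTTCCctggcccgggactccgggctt
CXCL3 (chr4:74038738-74038787, - strand): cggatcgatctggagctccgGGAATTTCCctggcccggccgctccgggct
CXCL5 (chr4:73998738-73998787, - strand): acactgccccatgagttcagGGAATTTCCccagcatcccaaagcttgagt
CXCL11 (chr4:76036116-76036165, - strand): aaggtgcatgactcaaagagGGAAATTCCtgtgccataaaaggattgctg
CXCL8, a chemokine outside the 9 (chr4:73740458-73740507, + strand): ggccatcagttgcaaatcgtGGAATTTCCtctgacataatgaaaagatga

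For CXCL10, whose rise led to the selection, the 250 bases before the start are shown whole (chr4:76023498-76023747, - strand). The capitals mark, in order, a match to GAAANNGAA (the core of an interferon-stimulated response element, ISRE), a match to GGAANTTCC and a match to GGGANTTCC, another kappa-B-like spelling.
CXCL10: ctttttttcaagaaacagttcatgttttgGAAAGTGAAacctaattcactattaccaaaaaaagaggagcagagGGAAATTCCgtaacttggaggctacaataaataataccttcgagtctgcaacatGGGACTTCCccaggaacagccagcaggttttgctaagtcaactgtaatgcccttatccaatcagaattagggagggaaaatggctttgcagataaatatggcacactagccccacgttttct

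Of the 7 matched promoters, 6 held GGAANTTCC on either strand, and CCL20 did not. The same letters stood in 0.965% of all 35116 promoters in the table. The match began 78, 77 and 78 bases before the start in CXCL1, CXCL2 and CXCL3, at nearly the same place in these close relatives, and 90, 75 and 176 bases before it in CXCL5, CXCL11 and CXCL10. With GGGANTTCC in its place, 1 member (CXCL10, 122 bases before the start) held a match, against 1.85% of all promoters. No other kappa-B-like spelling was searched, so the absence of a match in CCL20 covers only these letters. GAAANNGAA stood in 3 members (CXCL10, CXCL2 and CXCL3) and in 8.11% of all promoters. TGANTCA, an AP-1-like motif, stood in CXCL11 and in 7.71% of all promoters. TATAAA, the TATA box, stood on the gene's strand within 50 bases before the start in CCL20 and CXCL11, and in 2.63% of all promoters. A match shows that the letters are present and is not evidence of binding, and CXCL1, CXCL2 and CXCL3 share much of their sequence and are not independent examples. Among tested genes other than the members, 34.9% of the 146 with a GGAANTTCC match, CXCL8 included, were called higher in shWDR5. That stood beside 26.8% of all 11381 tested genes with a promoter in the table, and 28.1% beside 31.6% were called lower. The median log2 fold changes of these 146 and of all 11381 were close, at 0.01 and -0.03.

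**Figure D1:**
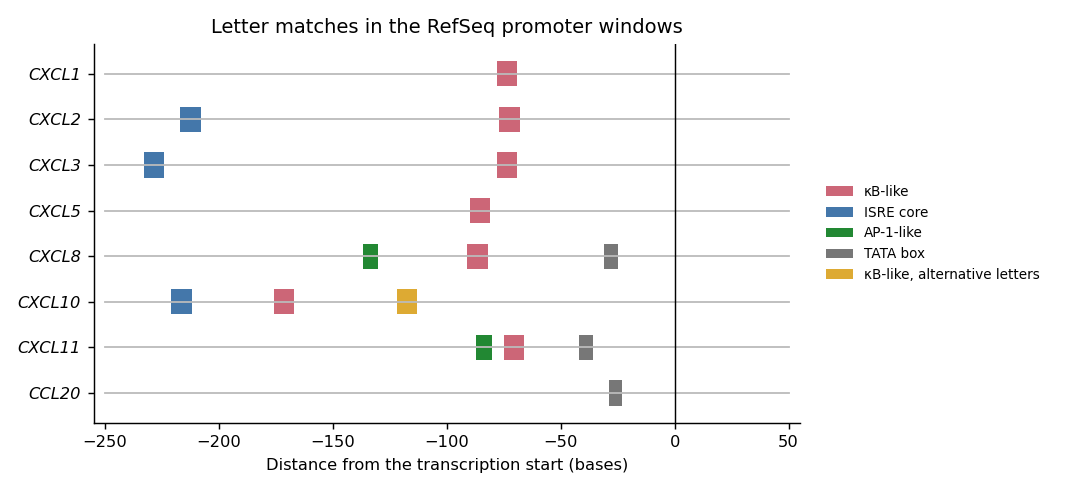
Position of each motif match (bases from the start of the gene, x axis) in the promoters of the 7 matched members and of CXCL8; each block is 1 match, and its colour gives the motif. The kappa-B-like matches of CXCL1, CXCL2 and CXCL3 line up 77 to 78 bases before the start, and CXCL10 has its GGAANTTCC match at 176 bases and its match to the other kappa-B-like letters at 122.

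The 6 libraries held 38218108 to 57640167 counted reads, and the TMM normalisation factors lay between 0.97 and 1.03. WDR5 had 52.5, 48.5 and 51.3 CPM (the counts-per-million scale, with library sizes adjusted by TMM) in shLuc and 23.4, 24.3 and 20.7 in shWDR5, a 2.22-fold lower level (log2 fold change -1.15 ± 0.07 SE; edgeR quasi-likelihood test, Benjamini-Hochberg adjusted p = 1.86e-07). Of 16117 genes with enough reads to test, 9103 were called at adjusted p under 0.05 (56.5%): 26.6% higher and 29.9% lower in shWDR5. The mammary epithelial markers EPCAM, CDH1, KRT5, KRT8, KRT14, KRT17, KRT18 and TP63 were all detected, with a summed level of 7113 to 7575 CPM in shLuc and 9263 to 10357 in shWDR5. Of these 8 markers, 4 (KRT5, KRT14, KRT17 and TP63) were called higher, 2 (CDH1 and EPCAM) were called lower, and KRT8 and KRT18 did not pass.

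CXCL10 showed the widest difference of the 8 members with enough reads to test. It had 0.911, 0.877 and 1.14 CPM in shLuc and 10.6, 9.53 and 10.6 CPM in shWDR5. Every shWDR5 sample was above every shLuc sample, and the difference was 10.5-fold (log2 fold change 3.39 ± 0.12 SE, n = 3 per group), the rank of 27 among the rises of the 16117 tested genes. These levels rested on 34 to 46 reads per shLuc library and 482 to 542 per shWDR5 library. In bulk RNA, more RNA per cell and more cells expressing the gene cannot be told apart.

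CXCL11, the neighbour of CXCL10 and a ligand of the same receptor, was near the limit of detection, with 14, 6 and 9 reads in shLuc and 11, 22 and 21 in shWDR5. Its groups overlapped (0.155 to 0.283 CPM against 0.237 to 0.463), and its log2 fold change was 0.68 ± 0.35 SE. Without shWDR5 replicate 1, the lowest of its group, the value was 0.90 and the count of members called in the fit across all genes went from 6 to 7.

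The ELR chemokines of the chromosome 4 cluster were all higher in shWDR5, from very different levels. CXCL1 was the most abundant, with 273, 299 and 337 CPM in shLuc and 702, 796 and 778 in shWDR5. All shWDR5 samples exceeded all shLuc samples, by 2.50-fold (log2 fold change 1.32 ± 0.08 SE). CXCL2 had 4.45, 4.20 and 6.02 CPM in shLuc and 15.7, 19.6 and 17.1 in shWDR5, which was 3.58-fold higher (1.84 ± 0.14 SE). CXCL3 had 2.75, 2.86 and 2.45 CPM in shLuc and 14.2, 18.0 and 16.1 in shWDR5, which was 5.99-fold higher (2.58 ± 0.11 SE). For both genes the lowest shWDR5 sample was well above the highest shLuc sample.

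CXCL5 was almost silent in shLuc, with 1, 0 and 0 reads, and had 12, 12 and 8 reads in shWDR5. It had too few reads for the fit. The ratio of depth-scaled reads was 27.7, and it rests on 1 shLuc read, so its size is not resolved.

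Some reads of the closest relatives cannot be assigned to 1 gene. The longest protein-coding transcripts of CXCL1 and CXCL2 were 80.1% identical over their alignment, those of CXCL1 and CXCL3 69.9%, and those of CXCL2 and CXCL3 66.2%. Of all 50-base windows, 5.73% in CXCL1, 9.24% in CXCL2 and 5.26% in CXCL3 were also found in the transcript of another chemokine, and 0 in the other 6 members. How reads with several matches were counted is not given in the sources used here. CXCL1 had a mean of 303 CPM in shLuc, beside 4.89 for CXCL2 and 2.69 for CXCL3. A small part of the CXCL1 reads would therefore weigh heavily in the 2 scarcer genes. The uncertainty of the CXCL2 and CXCL3 levels and fold changes is not bounded by the shares above.

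CCL20, a CCR6 ligand made by epithelia, had 17.2, 15.9 and 15.3 CPM in shLuc and 27.4, 31.7 and 25.2 in shWDR5. The groups did not overlap, and the difference was 1.74-fold (log2 fold change 0.80 ± 0.09 SE). CCL5 had 2.12, 1.65 and 1.88 CPM in shLuc and 2.22, 2.11 and 2.43 in shWDR5. Its groups overlapped, with a log2 fold change of 0.24 ± 0.13 SE. CXCL16 went the other way, with 52.0, 52.6 and 49.2 CPM in shLuc and 37.1, 35.6 and 35.5 in shWDR5. All its shWDR5 samples lay below all shLuc samples, by 1.42-fold (log2 fold change -0.51 ± 0.06 SE), and it was the tightest of the 9 within groups.

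**Figure D2:**
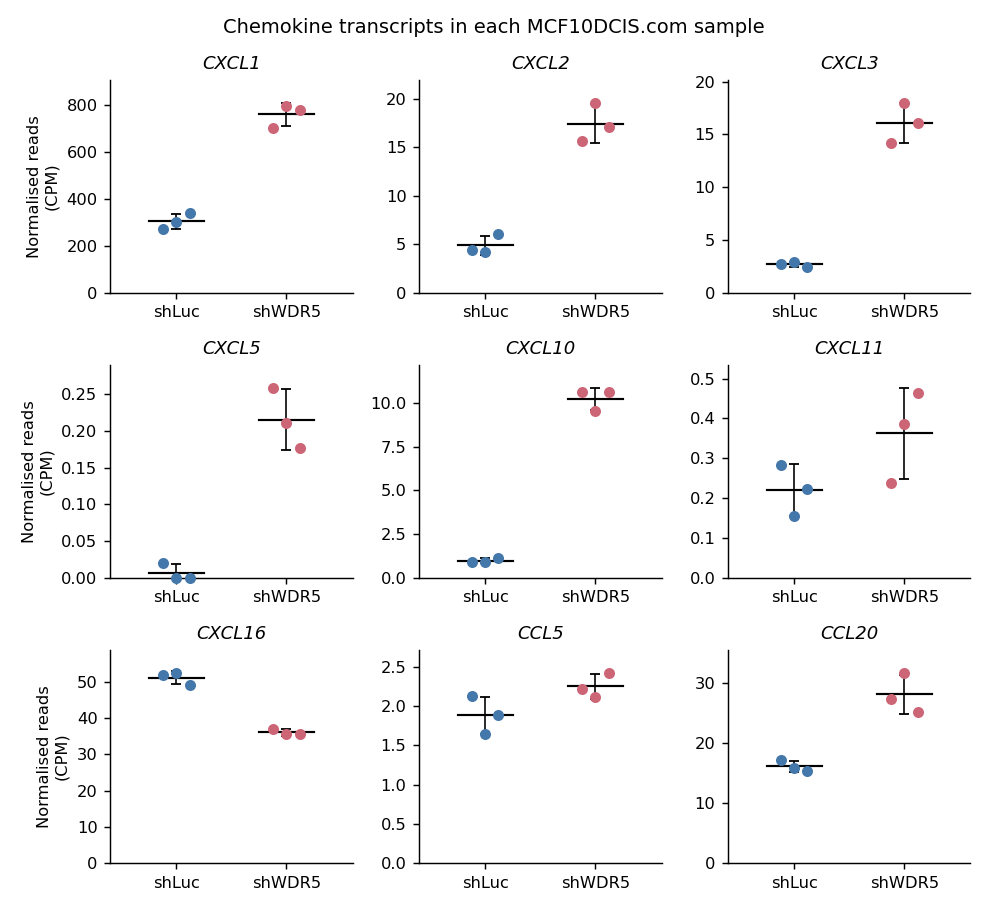
Normalised reads (CPM, linear y axis starting at 0 and scaled separately for each gene) of the 9 chemokines in the 3 shLuc and 3 shWDR5 samples; points are samples, the long line is the mean and the bar is 1 SD. CXCL1, CXCL2, CXCL3, CXCL5, CXCL10 and CCL20 separate with shWDR5 higher, CXCL16 with shWDR5 lower, and CXCL11 and CCL5 overlap.

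Of the 9 members, 8 had enough reads to test and 6 were called, 5 higher and 1 lower, beside 56.5% of all genes called in either direction, 26.6% higher and 29.9% lower. The median log2 fold change of the 8 was 1.06, and that of all tested genes -0.01. Of the 8, 5 had every shWDR5 sample above every shLuc sample, as did 29.9% of all tested genes, and CXCL5 did so on few reads. Under a stricter rule, which also asked for an absolute log2 fold change of at least 0.6 and a mean RPKM over 0.5 in either group, 5 of the 8 were called, beside 18.3% of all tested genes, and CXCL16 was no longer among them. The selection used this contrast, so nothing is read from these counts.

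The samples of a group did not order the members alike. In shLuc, replicate 3 was the highest for CXCL1, CXCL2 and CXCL10 and the lowest for CXCL3, CXCL16 and CCL20. In shWDR5, replicate 2 was the highest for CXCL1, CXCL2, CXCL3 and CCL20 and the lowest for CXCL10 and CCL5.

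Levels of different genes were compared per length, as RPKM (CPM per kilobase of summed exon length). In shLuc the order ran from CXCL1 (254 ± 27.3 SD, n = 3) through CXCL16 (21.3 ± 0.761), CCL20 (19.1 ± 1.15), CXCL2 (4.07 ± 0.819), CXCL3 (2.33 ± 0.184), CCL5 (1.44 ± 0.181), CXCL10 (0.802 ± 0.118) and CXCL11 (0.138 ± 0.0402) to CXCL5 at 0.00271. Neighbours in this order did not overlap between samples, although the lowest CXCL16 sample (20.5 RPKM) and the highest CCL20 sample (20.4) nearly met. In shWDR5, CXCL1 (637 ± 42.0 RPKM) again led, followed by CCL20 (33.4 ± 3.95). CXCL16 (15.0 ± 0.357), CXCL2 (14.5 ± 1.66) and CXCL3 (14.0 ± 1.64) came next with overlapping ranges, so their order was not resolved. CXCL10 (8.44 ± 0.517 RPKM) stood above CCL5 (1.72 ± 0.122), having been below it in shLuc. CXCL11 (0.226 ± 0.0717) and CXCL5 (0.0866 ± 0.0167) remained the lowest.

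**Figure D3:**
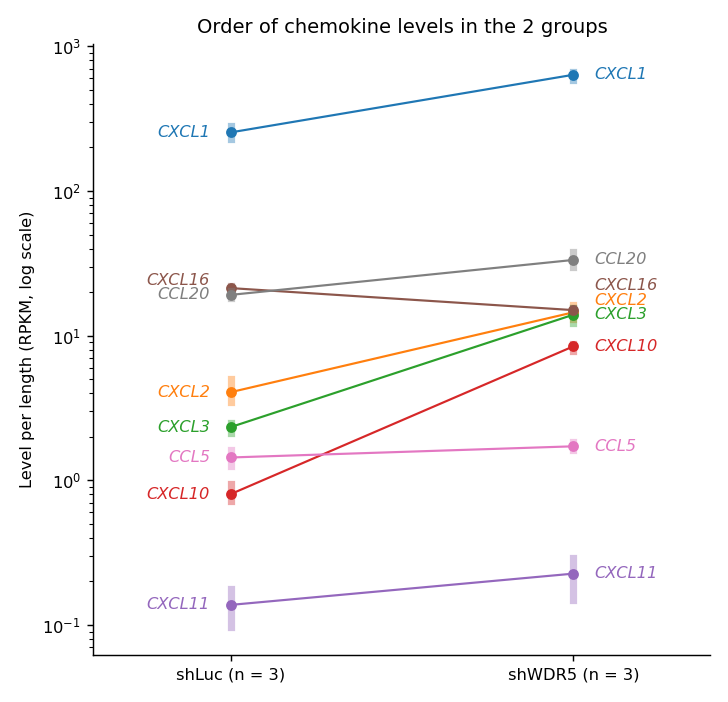
Level per length of each chemokine in shLuc and shWDR5 (RPKM, log axis as labelled); points are the means of 3 samples, vertical bars span those samples, lines join the same gene, and CXCL5, with samples at 0, is left out. CXCL1 is highest in both groups at 254 and 637 RPKM, and CXCL10 crosses CCL5 between them.

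The summed level of the 9 was 304 ± 26.1 RPKM in shLuc and 724 ± 45.9 in shWDR5, most of it CXCL1. With CXCL8, the abundant neutrophil chemokine of the same chromosome 4 cluster, the sum was 519 ± 39.3 and 1127 ± 94.6 RPKM. In that sum CXCL1 made up 48.9% in shLuc and 56.5% in shWDR5, CXCL8 41.5% and 35.7%, CXCL16 4.13% and 1.34%, and CXCL10 0.154% and 0.754%. CXCL10 thus remained a small part of this sum in both groups. Other chemokines were left out of it, among them CX3CL1 at 15.7 RPKM in shLuc and 16.1 in shWDR5.

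Of the 39 other chemokine genes, 13 had 0 reads in all samples and 6 could be tested. CXCL8, at 336, 386 and 380 CPM in shLuc and 601, 768 and 694 in shWDR5, rose 1.87-fold (log2 fold change 0.91 ± 0.09 SE, edgeR adjusted p = 1.65e-05). CCL22, a CCR4 ligand, was called higher (0.49 ± 0.16 SE, edgeR adjusted p = 0.0206), and the call was lost when shLuc replicate 2, shWDR5 replicate 1 or shWDR5 replicate 3 was left out (log2 fold changes 0.40, 0.36 and 0.46). CCL28, a mucosal chemokine, fell (-0.55 ± 0.09 SE, edgeR adjusted p = 0.000184). CX3CL1 (0.03), CCL2 (0.05) and CCL16 (-0.16, all log2 fold changes) did not pass. Of the 6, 2 were called higher and 1 lower, beside 26.6% and 29.9% of all tested genes, and their median was 0.04. The count of 3 called became 5 without shLuc replicate 3. Below the limit for testing, PPBP had 1, 1 and 2 reads in shLuc and 12, 14 and 9 in shWDR5, CCL24 1, 3 and 4 against 10, 8 and 10, and CXCL6 0 against 2, 3 and 1. CCL26, with 0 reads in each shLuc sample and 6, 5 and 2 in shWDR5, and CXCL9, with 2, 2 and 2 against 4, 4 and 7, also separated. These genes were picked for mention after their reads were seen, and some other scarce chemokines did not rise. PF4, for example, had 4, 1 and 1 reads in shLuc and 0, 2 and 0 in shWDR5, and CXCL17 3, 7 and 1 against 0, 3 and 2.

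The receptors of these ligands were scarce. Of 23 receptor genes 8 could be tested, and the highest mean was that of CCR1, a CCL5 receptor, which fell from 1.54 to 0.985 RPKM (log2 fold change -0.64 ± 0.11 SE, edgeR adjusted p = 0.00049). CCR7, the lymph-node homing receptor for CCL19 and CCL21, rose from 0.208 to 0.580 RPKM (1.45 ± 0.19 SE, edgeR adjusted p = 5.34e-05). CCR6, the CCL20 receptor, was called higher (0.39 ± 0.15 SE, edgeR adjusted p = 0.0429), and CXCR6, the CXCL16 receptor, lower (-0.88 ± 0.34 SE, edgeR adjusted p = 0.041). Neither was called by DESeq2, CCR6 was lost when any sample but shLuc replicate 1 was left out (0.26 to 0.42), and CXCR6 when shLuc replicate 1 or 2 or shWDR5 replicate 1 or 2 was (-0.96 to -0.57). CXCR2, the receptor of the ELR chemokines, had a log2 fold change of 0.26 and did not pass, nor did CCR2 (0.25), ACKR2 (-0.04) or ACKR4 (0.15). Of the 8, 2 were called higher and 2 lower, beside 26.6% and 29.9% of all tested genes, and their median was 0.20. CXCR3, the CXCL10 and CXCL11 receptor, had 1 read in all 6 libraries together, and CXCR4 also had 1. CCR3, also too scarce to test, had 5, 3 and 4 reads in shLuc and 23, 11 and 25 in shWDR5.

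Of the 20 subunits and regulators of NF-kB, all tested, 13 rose and 1 (CHUK, a kinase subunit upstream of NF-kB, log2 fold change -0.33) fell, beside 26.6% of all tested genes higher and 29.9% lower. The median was 0.44. TNFAIP3, a feedback inhibitor that is itself an NF-kB target, had 35.3, 34.7 and 33.5 CPM in shLuc and 107, 95.4 and 104 in shWDR5, all shWDR5 samples being higher (1.57 ± 0.06 SE, edgeR adjusted p = 1.05e-08). The other large rises were in the adaptor TRAF1 (0.99 ± 0.21 SE, edgeR adjusted p = 0.00287), the subunit RELB (0.86 ± 0.07, 9.35e-07), the inhibitor NFKBIA (0.83 ± 0.06, 3.91e-07) and the kinase IKBKE (0.71 ± 0.07, 4.74e-06). The subunits NFKB1 (0.54 ± 0.06 SE) and RELA (0.48 ± 0.06 SE) rose by less. Activity of NF-kB was not measured.

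Of 26 interferon signalling genes tested, 8 rose, 8 fell and 10 did not pass, beside 26.6% of all tested genes higher and 29.9% lower, so both shares were near the background. The median log2 fold change was 0.05. The largest changes were falls in interferon-induced genes, OASL (-1.97 ± 0.20 SE, edgeR adjusted p = 6.52e-06), IFIT2 (-1.72 ± 0.26, 0.000496) and IFIT3 (-1.08 ± 0.10, 3.37e-06), and in the transcription factor IRF7 (-0.72 ± 0.10, 6.16e-05). IFIT2 had 3.08, 3.30 and 4.53 CPM in shLuc and 0.73, 1.57 and 0.93 in shWDR5, with no overlap. The kinase JAK2 (0.51 ± 0.11 SE) and the transcription factor IRF1 (0.48 ± 0.08 SE) rose. Other interferon-inducible genes of the list were called higher with smaller values, DDX58 (0.24), SOCS1 (0.47) and IFIH1 (0.18), and IFIT1 (-0.29) and ISG15 (-0.23) did not pass. These 5 were named after their values were seen.

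Among 23 genes for chemokine-inducing cytokines, receptors and their signalling proteins, with the antagonist IL1RN, 20 could be tested. Of these, 11 rose and 3 fell, beside 26.6% and 29.9% of all tested genes. The median was 0.28. LTB, which signals through the lymphotoxin beta receptor, had 2.81, 2.42 and 1.78 CPM in shLuc and 16.6, 14.9 and 16.5 in shWDR5 (log2 fold change 2.76 ± 0.13 SE, edgeR adjusted p = 3.14e-08). TNF was low but did not overlap between groups, at 0.26, 0.13 and 0.20 CPM against 1.10, 1.00 and 1.15 (2.40 ± 0.25 SE, edgeR adjusted p = 8.96e-06). IL17C (1.74 ± 0.18 SE), IL36G (1.58 ± 0.28 SE) and IL1A (1.01 ± 0.06 SE), all epithelial cytokines, also rose. IL1B had a value of -0.09 and did not pass.

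Of 13 genes that act on chemokine RNA decay or on chemokine peptides, 12 could be tested, with 5 higher and 5 lower, beside 26.6% and 29.9% of all tested genes, and a median of 0.09. MMP9, a protease that trims several chemokines, had 6.56, 6.32 and 5.28 CPM in shLuc and 89.3, 59.3 and 84.4 in shWDR5 (3.68 ± 0.18 SE, edgeR adjusted p = 2.05e-06). ZC3H12A, an RNase that degrades inflammatory transcripts, rose (0.83 ± 0.06 SE), and the RNA-binding protein RC3H1 was called higher (0.43 ± 0.14 SE, edgeR adjusted p = 0.0343), a call that 5 of 11 alternatives lost. MMP1 (-0.68 ± 0.08 SE) and HNRNPD, which binds AU-rich RNA (-0.48 ± 0.05 SE), fell.

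**Figure D4:**
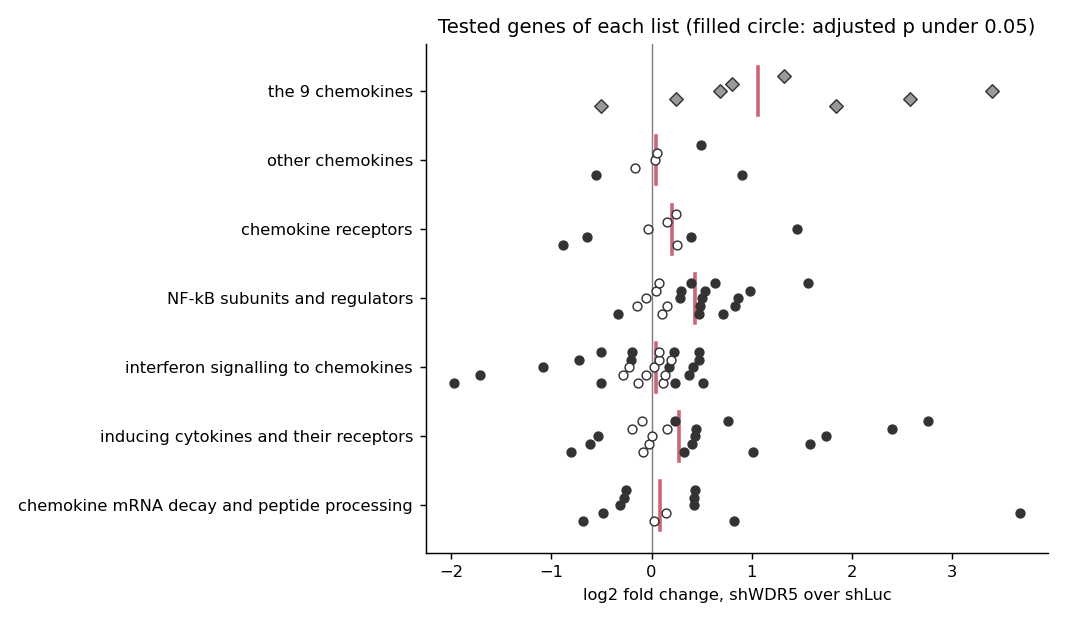
Log2 fold change (shWDR5 over shLuc, x axis) of each tested gene in the 9 chemokines and the 6 related lists; circles are filled where the adjusted p was under 0.05 and open otherwise, diamonds are the 8 tested members, shown without a test, and the bar is the list's median. The members have a median of 1.06, the NF-kB list 0.44 and the interferon list 0.05, the last with calls on both sides of 0.

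Leukocytes make many of these chemokines, so their markers were examined. CD3E had 0 reads in every sample, HLA-DRA had 4 in all, and PTPRC had 1, 0 and 1 reads in shLuc and 7, 4 and 4 in shWDR5. Of the 8 markers 4 could be tested, of which CD74 and ITGAM rose and CD14 fell. The summed level was 71.6 to 79.9 CPM in shLuc and 98.0 to 110 in shWDR5, most of it CD74, and its part in the chemokine values was not tested. The fibroblast markers summed to 21.8 to 23.0 CPM in shLuc and 14.5 to 17.6 in shWDR5, and the endothelial markers to 7.81 to 8.45 and 5.31 to 6.02.

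The genes around the chromosome 4 members did not share a direction. Within 250 kb of a member lay 14 genes that are not chemokines, of which 11 were tested. Of these, 2 were called higher and 5 lower, beside 26.6% and 29.9% of all tested genes, with a median of -0.12. This count was added after the data were seen. ART3, which spans CXCL10 and CXCL11 on the other strand without shared exon bases, fell (-1.24, edgeR adjusted p = 2.44e-07). CXCL16 shares 82 of its 2402 exon bases with MED11 (-0.28, edgeR adjusted p = 0.0097), and the library kit is not stated to keep strand, so reads there cannot be told apart.

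The genes whose log2 CPM followed CXCL10 most closely over the 6 samples were CTGF, CES2, STC2, C11orf95 and SHROOM2 (Pearson's r of 0.9999, 0.9998, 0.9997, 0.9992 and 0.9991). The samples form 2 groups, so r mostly restates the difference between them, and 347 of the 13185 genes compared had an r over 0.99. CTGF, a matricellular protein, had 76.9, 76.1 and 84.6 CPM in shLuc and 222, 209 and 223 in shWDR5. CES2, a carboxylesterase, followed the same profile with a much smaller difference (log2 fold change 0.41).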

How the data were processed

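Poly(A) RNA of 6 MCF10DCIS.com samples (3 shLuc, 3 shWDR5) was prepared with a TruSeq RNA kit and sequenced on an Illumina instrument. The deposited values were raw read counts per gene, 1 column per sample. Per the submitters' processing notes, the authors used TopHat2 2.1.0, featureCounts and edgeR 3.2.2 with hg19; annotation, strand and multi-mapping settings are not given in the sources used here. The authors' table of fold changes and p-values was not used.

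Genes passing filterByExpr were fitted with edgeR 4.0.16 (R 4.3.3; TMM, robust quasi-likelihood fit, group as the term), with Benjamini-Hochberg adjustment over all 16117 tested genes. SE is the absolute log2 fold change divided by the square root of F. Log2 CPM used a prior count of 0.5, and RPKM used the deposited summed exon length. On simulated counts for this comparison (15962 genes), 87 of 98 genes changed by a log2 of 1 and 99 of 99 changed by 2 were recovered. There were 12 false calls. Only 200 genes were set to change there, while 56.5% of tested genes were called in the real samples. The simulation therefore does not give the error rates of the real calls. DESeq2 1.42.0, other scalings, no filter, a replicate block, a stricter rule and leaving out each sample were the alternatives.

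The members and lists were chosen with earlier results of these data known. Named were the members, WDR5, every tested chemokine and receptor, up to 5 called genes with the largest changes in each other list, NFKB1, RELA, NFKBIA and IRF1, and the 5 genes (mean RPKM over 0.5) most correlated with CXCL10; any others (CHUK, IL1B, DDX58, SOCS1, IFIH1, IFIT1, ISG15, low-count chemokines and receptors, markers, chromosome 4 neighbours) were added after their values were seen. Some genes of the lists entered the counts and are not reported here by name. Promoters came from RefSeq (GRCh38.p14). A planned protein comparison was replaced by transcript identity (GENCODE, Biopython 1.88).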

Additional observations from a re-analysis of the deposited data

How the results depend on the processing

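The 8 tested members kept their direction in every alternative run, and the log2 fold change of CXCL10 ranged from 3.32 to 3.51 and that of CXCL16 from -0.54 to -0.47. Member calls were 6 under DESeq2, both other scalings and the block, 5 under the stricter rule (without CXCL16), 7 with no filter (CXCL5 added) and 6 to 7 with 1 sample left out (CXCL11 added without shWDR5 replicate 1). The stricter rule, by its own construction, called 2957 genes, 1 other chemokine, 2 receptors, 6 NF-kB, 4 interferon, 8 cytokine and 3 decay genes. With no filter 6 other chemokines were called, and under DESeq2 2 receptors. Leaving out 1 sample gave 8129 to 8841 genes, 2 to 5 other chemokines (5 without shLuc replicate 3), 2 to 4 receptors (2 without shWDR5 replicate 1), 13 to 14 NF-kB, 13 to 16 interferon, 14 to 15 cytokine and 9 to 11 decay genes, and a WDR5 value of -1.20 to -1.09. The cause of these moves was not tested. The other kappa-B letters matched 1 member promoter. Of 473 values for the 43 tested genes that the naming rule took beside the members and WDR5, 19 lost their call (CCL22, CCR6, CXCR6 and RC3H1), 1 (a gene not reported here) gained it and 0 called values changed direction.

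Samples with the same replicate number deviated together with correlations of 0.34, 0.03 and 0.10, and those with unlike numbers with -0.28 to 0.18. The value for replicate 1 was thus the highest. The main fit did not take the numbers as pairs, and whether they mark pairs was not tested. With the replicate block, 10430 genes and 6 members were called, and no call changed among the genes the naming rule took that are reported here. Depth limits CXCL5 and CXCL11, with at most 12 and 22 reads in a library.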
